A study of Bos taurus with 15 samples.

Results

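Bovine (Bos taurus) blastocysts at day 7 that were cultured after manual denudation were compared with blastocysts collected in vivo. The comparison took every library of both groups, 5 of each and 10 of the 15 in the series, and was described across all genes. Denudation strips an egg or zygote of its coat of cumulus cells. Here it was done on zygotes, by hand, and the embryos were then kept in SOF medium, a synthetic oviduct fluid, until day 7. The in vivo embryos were collected as day 7 blastocysts and serve as the reference. The remaining 5 libraries came from embryos whose cumulus was removed automatically before the same culture, and they entered the statistical fit. Poly(A) RNA was sequenced with a stranded kit in all groups. The labels count 5 blastocysts a group, as many as libraries, without saying outright that a library is 1 embryo. Separate cultures or donors within a group are not stated either, so p-values measure only how much these libraries vary, which may be technical variation. Manual denudation and culture come together in this comparison and cannot be told apart.

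A blastocyst has an outer epithelium, the trophectoderm, which pumps fluid into the cavity and later makes the placenta, and an inner cell mass that sorts into epiblast, the source of the fetus, and hypoblast, the source of the yolk sac. NANOG, SOX2 and POU5F1 are transcription factors of pluripotent cells, GATA3 and CDX2 of trophectoderm, and GATA6 of hypoblast. Cells that lack amino acids or fold proteins poorly switch on the integrated stress response, in which the transcription factor ATF4 drives genes for amino acid synthesis, uptake and tRNA charging. The level of these genes in an embryo can therefore vary with its cell types, its amino acid supply or its protein folding, none of which was measured directly. In whole embryos, fewer cells of a type and less RNA per cell cannot be told apart.

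Library totals ran from 17.96 to 29.95 M counts after manual denudation and from 24.07 to 41.97 M in vivo (M, 1e6 counts; exact two-sided permutation p = 0.294 for the totals, adjusted over 3 library measures 0.881). Genes with 10 or more counts numbered 10230 ± 1278 in the manual and 9839 ± 2049 in the in vivo libraries (SD, n = 5; exact permutation p = 0.722, adjusted 0.984). Mitochondrially encoded genes took 7.48% ± 4.74 and 7.59% ± 4.42 of counts (exact permutation p = 0.984, adjusted 0.984). Manual 2, in vivo 2 and in vivo 4 each had fewer than 9000 genes with 10 or more counts and are called low-detection libraries. Automatic 2 (7686) and automatic 4 (6977) fell below that limit too, and gene fits without the low-detection libraries left them out as well. The mean distance between libraries of different groups did not exceed that within groups (difference -0.00070 log2 CPM per gene, one-sided exact permutation p = 0.357). Libraries of the in vivo group lay 3.23 apart on average, those of the manual group 2.84 and libraries of different groups 3.03. Manual 1 and in vivo 3 were each other's nearest neighbour, while 7 of the 10 libraries had their nearest neighbour in their own group.

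No gene passed an adjusted p under 0.05 between manual denudation and in vivo collection (0% of 11578 genes tested, edgeR quasi-likelihood test). The smallest adjusted p was 0.124, for CHAC1. At an unadjusted p under 0.05, 392 genes (3.39%) stood, below the 578.9 that chance alone would give if no gene differed and all were independent. Of these, 218 were higher (1.88% of genes tested) and 174 lower (1.5%) after manual denudation. In 88 genes (0.76%) every manual library lay above every in vivo library, and in 70 genes (0.605%) every manual library lay below. With other tools on the same libraries, DESeq2 called 44 genes, 30 of them higher after manual denudation, limma-voom called CHAC1 alone, and voom with quality weights called CHAC1 and PSAT1. For 2526 genes (21.8%) the 95% interval excluded differences above 4-fold, and for 305 (2.63%) above 2-fold. A missing call therefore does not show that a gene was equal in both groups. Gene by gene values below are CPM, counts per 1e6 of a library total multiplied by a scaling factor (TMM). Libraries therefore do not sum to 1e6, and the CPM of in vivo 2, with the lowest factor (0.543), are raised most. Differences are log2 fold changes of manual minus in vivo with their standard error.

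Genes of the amino acid response were mostly higher after manual denudation. Of 18 listed genes 16 passed the filter on low counts, 12 were higher and 4 lower, and the median log2 fold change was 1.14, against -0.02 over all genes tested. At an unadjusted p under 0.05 it held 5 genes higher (1.88% of all genes tested were) and 0 lower, and 3 genes had every manual library above (0.76% of all genes). Without the low-detection libraries 15 of 17 were higher, with a median of 1.32, and 8 were higher at that unadjusted p, where 532 of all 12329 genes then tested also were. Members near or at 0 in vivo, such as CHAC1 and FGF21, passed the filter through the cultured groups, which partly sets the direction. With the 10 libraries alone 10 of 13 were higher (median 1.05), and without a filter 13 of 18 (median 1.14).

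CHAC1 encodes an enzyme that breaks down glutathione and is among the most responsive ATF4 targets. It stood at 28.9, 8.999, 11.6, 33.7 and 6.21 CPM in manual libraries 1 to 5. In vivo it had 0 counts in 4 libraries and 0.102 CPM, or 5 counts, in in vivo 3. The lowest manual library thus held 118 counts of a gene that was near absent from every in vivo library, and the fitted difference was 9.27 ± 1.57 (edgeR adjusted p = 0.124). ASNS makes asparagine from aspartate. Its level was 703, 285, 344, 207 and 228 CPM in the manual libraries and 107, 2.98, 86.1, 89.4 and 69.0 CPM in the in vivo libraries. The groups did not overlap, with a difference of 2.32 ± 0.69 (adjusted p = 0.994), and the low in vivo 2 stood apart from the other in vivo libraries.

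ATF4 itself stood at 825, 292, 588, 800 and 792 CPM after manual denudation against 293, 257, 312, 577 and 294 CPM in vivo. Its groups overlapped, since manual 2 lay among the in vivo libraries and in vivo 4 almost reached manual 3 (0.93 ± 0.34, adjusted p = 0.9997). Both were low-detection libraries, and without those the difference was 1.32. DDIT4, which restrains the growth kinase mTORC1, reached 36.04 to 164 CPM in manual and 0 to 35.6 CPM in in vivo libraries (2.48 ± 0.998), apart but almost touching. FGF21, a secreted stress hormone, had counts in 4 of 5 manual libraries, at up to 11.4 CPM, and 0 in every in vivo library. Other members differed less clearly: SESN2 by 1.55 ± 0.97, DDIT3 by 1.22 ± 0.76, and TRIB3, a pseudokinase that damps ATF4, by 1.31 ± 1.595, with overlapping libraries in each. PPP1R15A, which reverses the upstream phosphorylation of eIF2α, lay the other way at -2.13 ± 1.14.

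**Figure D1:**
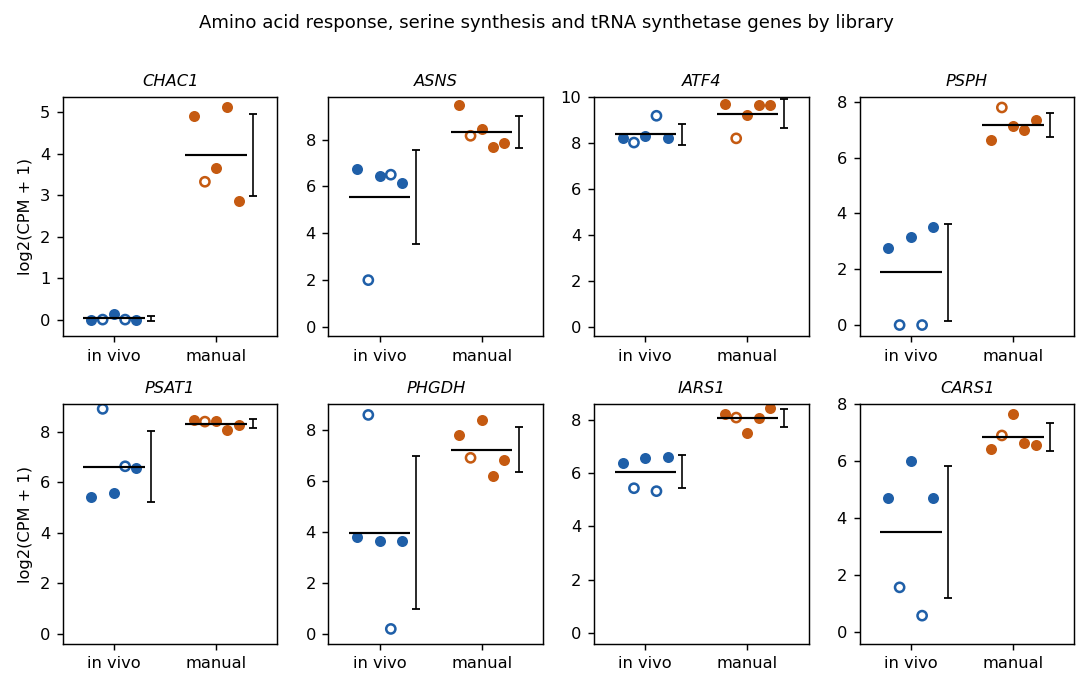
Level of 8 genes of the amino acid response, serine synthesis and tRNA charging as log2(CPM + 1), with 1 point per library, 5 in vivo (blue) and 5 manual (orange). Open points are low-detection libraries, lines are means and bars the SD. CHAC1, ASNS, PSPH, IARS1 and CARS1 do not overlap between groups, while in vivo 2 lies at the level of the manual libraries for PSAT1 and PHGDH.

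Serine is built from a glycolytic intermediate by PHGDH, PSAT1 and PSPH in turn. PSPH, the last step, stood at 98.7, 222, 138, 125 and 163 CPM after manual denudation and at 5.75, 0, 7.96, 0 and 10.6 CPM in vivo. Every manual library was above every in vivo library (4.93 ± 1.11, adjusted p = 0.676), and the 2 in vivo libraries at 0 were the low-detection libraries. PSAT1, the middle step, was even across the manual libraries at 355, 338, 347, 266 and 305 CPM, and ran at 42.01, 480, 46.5, 98.3 and 93.2 CPM in vivo. PHGDH, the first step, ran at 226, 120, 336, 72.2 and 114 CPM against 12.8, 387, 11.3, 0.137 and 11.6 CPM. For both genes in vivo 2 was the highest of all 10 libraries and the other in vivo libraries lay below every manual library. The fitted differences were 1.08 ± 0.56 for PSAT1 and 1.04 ± 1.35 for PHGDH, and 2.21 and 4.28 without in vivo 2. Without the low-detection libraries, PSPH (4.02 ± 0.40, adjusted p = 0.00193), PHGDH (3.96 ± 0.51, adjusted p = 0.0219) and PSAT1 (2.39 ± 0.34, adjusted p = 0.0354) were the 3 genes that edgeR called. The in vivo group of that fit was in vivo 1, 3 and 5, without in vivo 2, the highest library for PSAT1 and PHGDH. Over the whole serine and folate list, these 3 genes included, 9 of the 16 members that passed the filter were higher, and the median was 0.11. MTHFD2, SHMT2 and TYMS, which carry and use folate units, differed by 0.37 ± 0.38, 0.84 ± 0.88 and 0.02 ± 0.36.

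PYCR1, a mitochondrial enzyme that completes proline synthesis, stood at 17.2 to 44.3 CPM in the manual and 0 to 5.26 CPM in the in vivo libraries (4.28 ± 1.34, adjusted p = 0.9997). Its relative PYCR3 (-0.64 ± 0.87) pointed the other way, and the proline, glutamate and aspartate list had 4 of 13 members higher and a median of -0.21.

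Aminoacyl-tRNA synthetases load each tRNA with its amino acid. All 20 listed cytosolic enzymes passed the filter, 13 were higher after manual denudation and the median was 0.34 (-0.04 without manual 1). At an unadjusted p under 0.05 stood 5 genes, all higher (1.88% of all genes), and 3 had every manual library above (0.76%). Without manual 1, 9 were higher and 2 stood at that p. IARS1, which charges isoleucine tRNA, was at 295, 269, 182, 267 and 342 CPM in the manual libraries and at 81.2, 42.1, 93.1, 38.9 and 96.0 CPM in vivo. The lowest manual library lay well above the highest in vivo library (1.95 ± 0.39, adjusted p = 0.531). TARS1, for threonine, ranged from 527 to 727 CPM against 288 to 494 CPM, also without overlap (0.81 ± 0.34). CARS1, for cysteine, ranged from 84.4 to 200 CPM against 0.503 to 64.0 CPM, its lowest values being those of the low-detection in vivo libraries (2.35 ± 0.84). YARS1 for tyrosine (1.29 ± 0.49) and GARS1 for glycine (0.94 ± 0.41) were higher with overlap. Enzymes for valine (VARS1, -0.998 ± 0.82), lysine (KARS1, -0.30 ± 0.44) and glutamine (QARS1, -0.29 ± 0.42) were lower, each within its error or near it.

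Among amino acid transporters, 13 of 17 listed genes passed the filter, 10 were higher, 4 of them at an unadjusted p under 0.05 (1.88% of all genes), and the median was 0.99, or 1.86 without in vivo 2. These values depend on the filter, which used all 15 libraries. With the 10 libraries alone 7 of 10 were higher (median 0.64), and without a filter 12 of 16 (median 1.56). SLC38A2, which imports small neutral amino acids such as alanine and glutamine, stood at 285, 279, 431, 598 and 710 CPM after manual denudation and 197, 219, 255, 336 and 168 CPM in vivo. The ranges overlapped only through in vivo 4 (0.97 ± 0.33, adjusted p = 0.9997). SLC1A5, a glutamine carrier, did not overlap, at 64.7 to 160 CPM against 0.0915 to 41.3 CPM (2.14 ± 1.004). SLC7A11, the cystine importer that feeds glutathione synthesis, had counts in 2 manual libraries, 3.39 and 6.69 CPM, and 0 in every in vivo library. SLC1A1, a glutamate carrier, was lower by a small amount (-0.41 ± 0.29), and SLC3A2, the partner chain of several exchangers, differed by 0.34 ± 0.72.

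**Figure D2:**
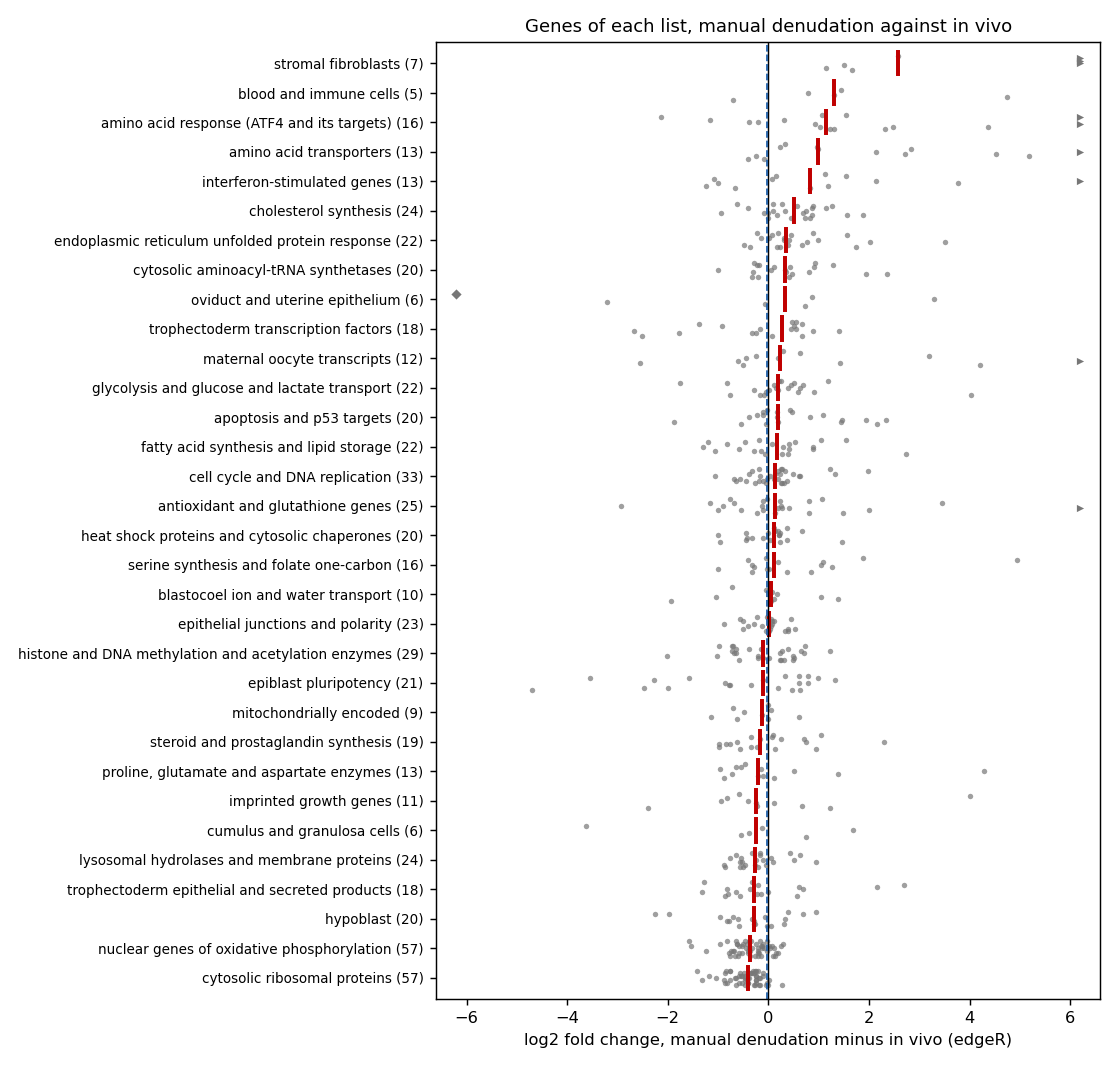
Log2 fold change of manual minus in vivo (edgeR) for each gene of the 32 lists that passed the filter, with the number of genes in brackets. Gray points are genes, red bars the list medians, and the dashed line the median over all genes, -0.02. Genes beyond 6 are drawn at the edge, the solid line marks 0, and the medians run from 2.58 for stromal genes to -0.40 for ribosomal proteins.

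The unfolded protein response of the endoplasmic reticulum, which shares ATF4 with the amino acid response, had 18 of 22 genes higher and a median of 0.35, with 2 higher at an unadjusted p under 0.05 (1.88% of all genes). Without manual 3, 13 were higher and the median was 0.08. DNAJB9, a chaperone partner made when IRE1 is active, stood at 126, 201, 112, 227 and 144 CPM in the manual and 44.8, 15.0, 29.7, 91.0 and 92.7 CPM in the in vivo libraries. The groups were apart (1.57 ± 0.51, adjusted p = 0.9997). CANX, a lectin chaperone, differed by 0.77 ± 0.31, whereas HSPA5, the main chaperone of that compartment, differed by 0.08 ± 0.46. ERO1A, which oxidizes protein disulfide isomerase so that disulfide bonds can form, stood at 71.6, 204, 70.5, 89.6 and 189 CPM against 25.99, 20.7, 19, 5.35 and 35.1 CPM. Its manual libraries all lay above the in vivo libraries (2.56 ± 0.62, adjusted p = 0.844). MCFD2, a cargo receptor for export from the endoplasmic reticulum, ranged from 272 to 480 CPM against 113 to 241 CPM (1.18 ± 0.34).

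Lipid genes were spread. ACSL4, which activates arachidonic acid and related long-chain fatty acids, stood at 92.1, 139, 59.8, 77.7 and 42.5 CPM against 13.2, 0.612, 25.6, 13.5 and 6.64 CPM, with no overlap (2.79 ± 0.76, adjusted p = 0.994). CERS3, a ceramide synthase for very long chains, stood at 21.9, 23.4, 22.04, 24.9 and 66.2 CPM after manual denudation and no higher than 0.389 CPM in vivo (7.62 ± 1.75, adjusted p = 0.705). Of 24 cholesterol synthesis genes 18 were higher, with a median of 0.51 (0.27 without in vivo 2) and 1 gene, the sterol carrier STARD4 (1.87 ± 0.84), at an unadjusted p under 0.05 (1.88% of all genes). CYP51A1, a sterol demethylase, was the 1 member of 24 with every manual library above (0.76% of all genes). It stood at 151 to 195 CPM against 0.842 to 151 CPM. The highest in vivo library all but touched the lowest manual library (1.57 ± 0.82). Fatty acid synthesis and lipid storage had 12 of 22 genes higher: ACLY, which makes cytosolic acetyl-CoA, differed by 0.90 ± 0.39 and PLIN3, a lipid droplet coat protein, by -1.20 ± 0.47.

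Genes of energy and redox metabolism lay lower in part. GPX1, a peroxidase that spends glutathione, was even in the manual libraries at 340, 378, 359, 344 and 387 CPM and ran at 1199, 379, 470, 1210 and 785 CPM in vivo. In vivo 2 lay at the manual level and the other in vivo libraries above it (-1.16 ± 0.34, adjusted p = 0.994). PRDX2, a thioredoxin-dependent peroxidase, ranged from 1085 to 1837 CPM against 1734 to 3076 CPM (-0.91 ± 0.28). The antioxidant list as a whole was balanced, with 13 of 25 genes higher and a median of 0.12. In glycolysis, TPI1, which interconverts the triose phosphates, stood at 196, 0, 281, 31.2 and 180 CPM against 13.6, 1.38, 14.9, 0.823 and 11.2 CPM (4.03 ± 1.43). Manual 2 had no count of it, and the other manual libraries lay above all in vivo libraries. LDHB, the lactate dehydrogenase subunit that favours pyruvate, differed by -0.77 ± 0.34.

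Ribosomal proteins of the cytosol were lower as a list: 55 of the 57 genes that passed the filter, with a median of -0.40. At an unadjusted p under 0.05 stood 5, all lower (1.5% of all genes were). In 3 every manual library lay below every in vivo library (0.605% of all genes). The size of this difference varied with the scaling and with in vivo 2, while the median stayed below 0. With library size as the only scaling 46 genes were lower and the median was -0.19, where the median of all genes itself moved from -0.02 to 0.10 and 6344 genes were higher and 5234 lower, against 5714 and 5864. Without in vivo 2 the list had 32 genes lower and a median of -0.11, and without the low-detection libraries 36 and -0.17. Nuclear genes of oxidative phosphorylation had 47 of 57 lower and a median of -0.36, and 30 lower with a median of -0.05 without in vivo 2. ATP5MC2, a ring subunit of ATP synthase, was the 1 member of 57 at an unadjusted p under 0.05 (-0.65 ± 0.29). Of all genes 1.5% were lower at that p. Ribosomal protein genes have many processed copies in the genome, among which reads can be divided, so their values are uncertain.

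Lineage factors of the blastocyst were found in both groups. POU5F1 stood at 288 ± 140 CPM in the manual and 208 ± 134 CPM in the in vivo libraries, GATA3 at 97.3 ± 50.6 and 61.5 ± 51.5 CPM, and GATA6 at 181 ± 81.6 and 226 ± 144 CPM (SD, n = 5). SOX2 was at 19.4 ± 9.32 and 11.2 ± 5.06 CPM and CDX2 at 7.84 ± 4.92 and 9.78 ± 9.52 CPM. The 95% intervals of these 5 differences all included 0, and that of CDX2, from -3.01 to 2.38, spanned more than 4-fold in each direction. The sign for CDX2 (-0.32 ± 1.29) and GATA6 (-0.32 ± 0.56) turned in some other settings, to 0.12 and 0.35 without the low-detection libraries. The hypoblast markers GATA4 and SOX17 reached at most 1.57 and 0.655 CPM in any of the 10 libraries.

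Pluripotency genes were divided. Of 21 epiblast genes 10 were higher and 11 lower, the median was -0.11 (0.59 with limma-voom), and 3 were lower at an unadjusted p under 0.05 (1.5% of all genes). NANOG stood at 19.1, 48.3, 57.3, 41.99 and 106 CPM after manual denudation and 215, 161, 182, 346 and 414 CPM in vivo. Every in vivo library was above every manual library (-2.27 ± 0.62, adjusted p = 0.994). CRIPTO, the co-receptor of NODAL, stood at 2.98, 0, 29.7, 0.346 and 0 CPM against 76.2, 444, 41.9, 163 and 138 CPM, again without overlap (-4.71 ± 1.83, adjusted p = 0.9997; -7.68 without manual 3). PRDM14, a repressor that guards pluripotency, stood at 18.7, 0.609, 56.3, 32.1 and 14.1 CPM against 47.1, 21.4, 78.5, 190 and 151 CPM, with overlap (-2.001 ± 0.87). NODAL itself was low, with counts in 1 manual and 4 in vivo libraries and at most 9.54 CPM (-3.55 ± 2.25), and its feedback inhibitor LEFTY2 was at 0 in 3 manual libraries and at 9.19 to 103 CPM in vivo (-2.48 ± 1.82). In contrast ZFP42 (0.62 ± 0.32), KLF4 (0.62 ± 0.61) and POU5F1 (0.47 ± 0.54) were higher, each with overlap. DNMT3A, a writer of new DNA methylation, stood at 834, 265, 662, 585 and 458 CPM against 1342, 1170, 926, 1244 and 990 CPM, with the groups apart (-1.02 ± 0.35, adjusted p = 0.9997).

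**Figure D3:**
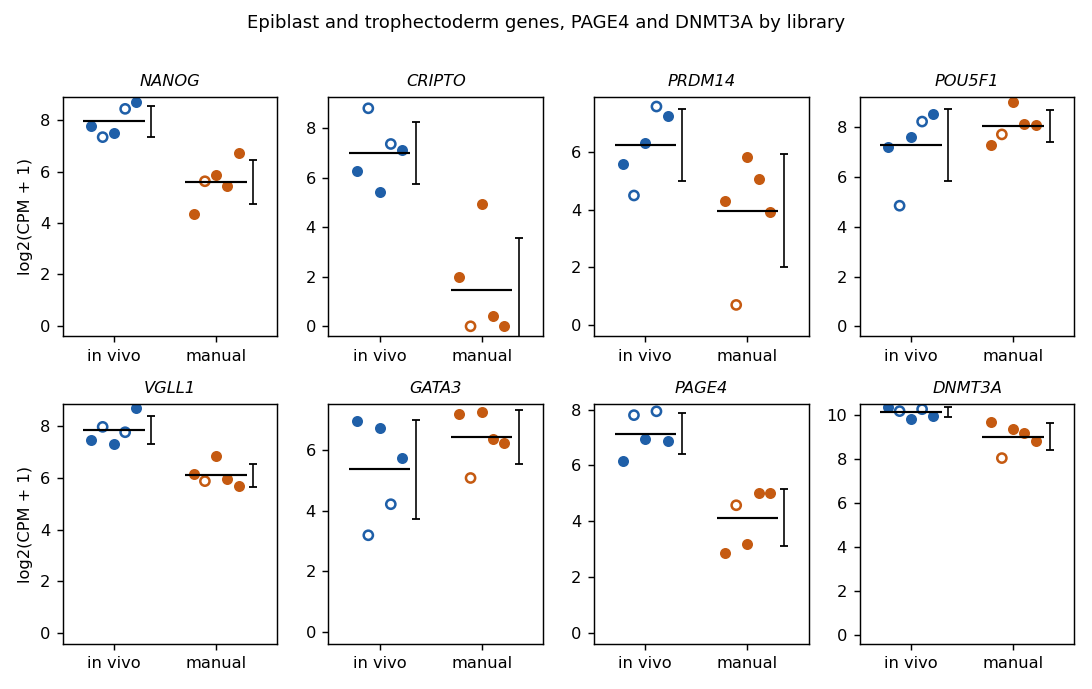
Level of epiblast genes (NANOG, CRIPTO, PRDM14, POU5F1), trophectoderm genes (VGLL1, GATA3), PAGE4 and DNMT3A as log2(CPM + 1), with 1 point per library, 5 in vivo (blue) and 5 manual (orange). Open points are low-detection libraries, lines are means and bars the SD. All manual libraries lie below all in vivo libraries for NANOG, CRIPTO, VGLL1, PAGE4 and DNMT3A, and the groups overlap for PRDM14, POU5F1 and GATA3.

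Trophectoderm genes also lay on both sides. Of 18 transcription factors 10 were higher, with a median of 0.26 that turned to -0.28 without manual 1 and -0.26 without in vivo 2, and of 18 epithelial and secreted products 13 were lower, with a median of -0.28. VGLL1, a partner of the TEAD factors, stood at 69.1, 57.2, 114, 60.6 and 50.6 CPM after manual denudation and 175, 247, 154, 214 and 407 CPM in vivo, without overlap (-1.77 ± 0.45, adjusted p = 0.994). Its partner TEAD4 differed by 0.51 ± 0.90 and GATA2 by -0.92 ± 0.70. DAB2, an endocytic adaptor, ranged from 195 to 707 CPM against 731 to 1080 CPM (-0.81 ± 0.34). LRP2, the large receptor it serves, ranged from 924 to 2630 CPM against 2261 to 4118 CPM (-0.78 ± 0.30). LRP2 was counted in the hypoblast list, where 6 of the 20 genes that passed the filter were higher and 14 lower. The median of that list was -0.29, and LRP2 was its 1 gene at an unadjusted p under 0.05 (1.5% of all genes were lower at that p). FABP3, a fatty acid carrier, differed by -0.82 ± 0.36. The keratins KRT18 (-0.33 ± 0.35) and KRT8 (-0.65 ± 0.46) overlapped widely.

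Interferon tau, the trophectoderm protein by which a ruminant embryo announces itself to its mother, was higher in both genes that passed the filter, IFNT3 by 2.70 ± 1.27 and IFNT by 2.17 ± 1.12. IFNT3 stood at 22.8, 60.4, 178, 51.1 and 107 CPM against 28.6, 0, 8.28, 1.74 and 25.8 CPM, with manual 1 inside the in vivo range. Pregnancy-associated glycoproteins are secreted later by the placenta. PAG2 ranged from 106 to 403 CPM against 263 to 793 CPM (-1.28 ± 0.70). Both families consist of near-identical copies whose reads can be divided between genes, so these values are uncertain.

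PAGE4, of the cancer and testis antigen class, stood at 6.27, 22.8, 8.16, 31.6 and 31.1 CPM after manual denudation and 70.0, 223, 122, 245 and 116 CPM in vivo. The highest manual library held less than the lowest in vivo library (-2.96 ± 0.69, adjusted p = 0.705). TCAF2, a regulator of a cold-sensitive ion channel, ranged from 37.7 to 231 CPM against 291 to 693 CPM (-1.99 ± 0.57), and PPDPF from 42.3 to 87.6 CPM against 114 to 217 CPM (-1.31 ± 0.41). ANP32A, an acidic nuclear phosphoprotein, ranged from 2.43 to 16.4 CPM against 19.5 to 212 CPM (-2.57 ± 0.81). ANPEP, a membrane aminopeptidase that trims peptides to free amino acids, had 0 counts in all 5 manual libraries and 38, 1357, 45, 186 and 110 counts in vivo. Against a floor of 3 counts over the manual group it was at least 1070-fold lower, a figure set mostly by in vivo 2, and it was the 1 gene with 0 counts in every manual library and 10 or more in every in vivo library. No gene showed the reverse. On the higher side DDX4, a helicase of germ cells also carried by the egg, stood at 48.8, 236, 15.8, 8.99 and 13.1 CPM against 0.0227, 0, 2.47, 0 and 0 CPM (6.96 ± 2.02). OOEP, an egg-derived subunit of the subcortical maternal complex, lay lower at 1.54 to 6.08 CPM against 3.63 to 56.7 CPM (-2.55 ± 1.19).

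Marker genes of cells that could have come along were also read. Cumulus and granulosa markers summed to 97.6 to 245 CPM after manual denudation and 126 to 249 CPM in vivo. Most of that sum was SERPINE2 (131 ± 51.3 and 142 ± 63.4 CPM, SD, n = 5), and the cumulus genes HAS2, PTX3 and GREM1 were at most 1.57 CPM in every library. Of 16 cumulus markers with a row, 2 were at 0 throughout the manual group and 5 throughout the in vivo group. Blood and immune markers summed to 28.8 to 142 CPM and 33.2 to 134 CPM, with the leukocyte antigen PTPRC at 0 in all 10 libraries. CD68, a macrophage protein of lysosomes, was at 0.474 to 19.8 CPM against 0 to 1.15 CPM (4.74 ± 2.04). Oviduct and uterine markers summed to 10.3 to 120 CPM and 22.5 to 97.3 CPM. Of the 6 that passed the filter 3 were higher and 3 lower, with a median of 0.33. In 1 of them every manual library lay above every in vivo library (0.76% of all genes). At an unadjusted p under 0.05 stood 1, WFDC2, a secreted epithelial protein, which was lower (1.5% of all genes). WFDC2 stood at 6.16, 39.6, 0.798, 48.8 and 0.0733 CPM in vivo, highest in both low-detection libraries. Among the manual libraries it had counts in manual 1 alone (-9.03 ± 2.44, adjusted p = 0.994). OVGP1, the oviduct glycoprotein, had counts in in vivo 3 and manual 1 only.

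Stromal fibroblast markers summed to 52.1 to 533 CPM after manual denudation and 1.10 to 49.0 CPM in vivo. Of 13 listed genes 7 passed the filter, among them POSTN and LUM, which are near or at 0 in vivo and passed through the cultured groups where they are high, so that the direction of those 7 is partly set by the filter. Without the filter 11 genes were higher and 1 lower. Of the 7, 3 stood at an unadjusted p under 0.05 (1.88% of all genes were higher at that p). Their median was 2.58, also when POSTN was set to its bound. With 1 library left out, the median ran from 2.75 (without manual 1) to 8.69 (without in vivo 3), while 7 to 9 genes passed. Other filters gave lower medians. With the 10 libraries alone 4 genes passed, all higher, with a median of 1.59. Of those, 1 stood at an unadjusted p under 0.05, where 161 of all 10531 genes then tested were also higher. With a filter of 1 CPM in 5 libraries 6 passed, all higher, with a median of 2.12. LUM, a collagen-binding proteoglycan, stood at 131, 115, 76.7, 3.36 and 0 CPM after manual denudation and no higher than 0.327 CPM in vivo (9.13 ± 2.02, adjusted p = 0.676). POSTN, a matrix protein, stood at 249, 4.50, 260, 3.39 and 0 CPM and had 0 counts in every in vivo library, at least 5340-fold higher against a floor of 3 counts over the in vivo group. Manual 1 and 3 were high in both genes, manual 2 in LUM, and manual 5 had no count of either. The collagen chain COL1A2 was found in every in vivo library too, at 0.0457 to 34.9 CPM against 19.1 to 90.8 CPM, and FAP, a fibroblast surface protease, was at 0 in all 10. In manual 5, where LUM and POSTN were at 0, CHAC1 stood at 6.21, PSPH at 163 and ASNS at 228 CPM. These genes do not overlap between the groups, so any manual library lies above every in vivo library for them. Their values in manual 5 therefore carry no information on stromal cells. Manual 5 was not free of stromal markers, since the whole list summed to at least 52.1 CPM in every manual library. In vivo the sum reached at most 49.0 CPM, and a sum can be carried by a few abundant genes. A score that weighs genes alike was the mean log2 CPM of the stromal genes that passed the filter. It was taken relative to the mean of the 10 libraries and to all genes. By that score manual 5 (-0.92) lay below in vivo 2 (-0.53) and in vivo 3 (-0.79), and above the other in vivo libraries. The part of stromal cells in the other differences was not tested.

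**Figure D4:**
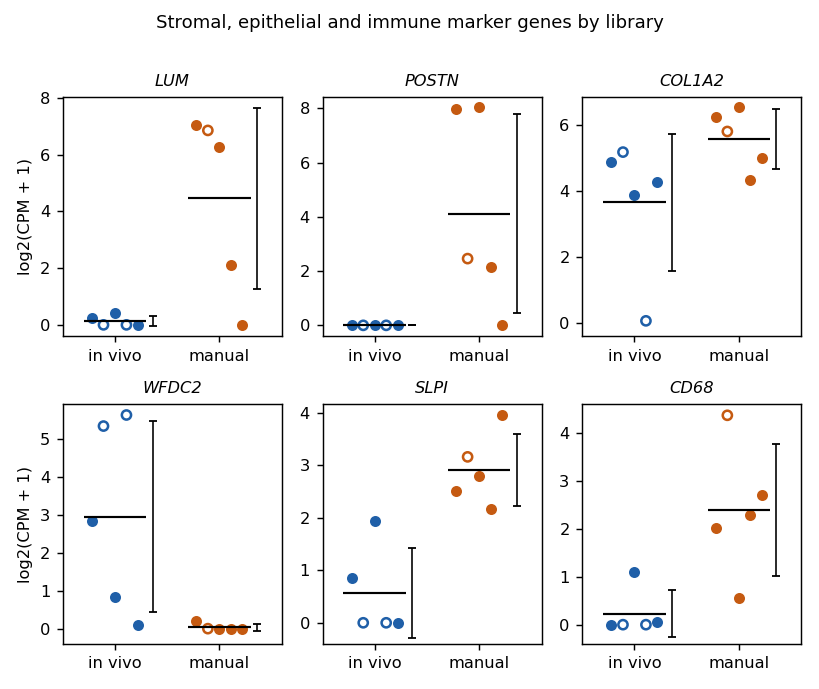
Level of stromal (LUM, POSTN, COL1A2), oviduct and uterine (WFDC2, SLPI) and immune (CD68) marker genes as log2(CPM + 1), with 1 point per library, 5 in vivo (blue) and 5 manual (orange). Open points are low-detection libraries, lines are means and bars the SD. POSTN is at 0 in all in vivo libraries and LUM near 0, and both are at 0 in 1 manual library.

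Interferon-stimulated genes were detected unevenly, with 13 of 24 genes in the table passing the filter and 9 higher, 1 of them at an unadjusted p under 0.05 (1.88% of all genes). The median of 0.82 turned to -0.04 without manual 1, where 6 of 13 were higher. IFI6, a mitochondrial protein of that response, stood at 54.8, 22.9, 172, 1.98 and 0 CPM after manual denudation and at most 1.69 CPM in vivo (6.81 ± 2.31, adjusted p = 0.9997). MX1, an antiviral GTPase, was highest in manual 1 and 3 as well, at 45.1 and 60.4 CPM, and at most 6.03 CPM in vivo (3.76 ± 2.49). Those were also the libraries with the most POSTN, and the part of other cells in this was not tested.

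The automatic group shares culture with the manual group and was set against the same in vivo libraries. No gene passed between manual and automatic denudation in edgeR (171 at an unadjusted p under 0.05; DESeq2 called 9, limma-voom 0 and voom with quality weights 1). Between automatic denudation and in vivo, LRP2 (adjusted p = 0.0294) passed in edgeR, as did 1 other gene, CHAC1 (adjusted p = 0.0424), and with 1 manual or in vivo library left out 0 to 4 genes passed. For CHAC1 the difference from in vivo was 9.27 ± 1.57 after manual and 9.71 ± 1.59 after automatic denudation, and for PSPH 4.93 ± 1.11 and 5.36 ± 1.13. NANOG lay at -2.27 ± 0.62 and -2.43 ± 0.62, and PAGE4 at -2.96 ± 0.69 and -3.96 ± 0.73. Cholesterol synthesis had a median of 0.51 with 18 of 24 genes higher after manual and of -0.36 with 4 higher after automatic denudation. LRP2, -0.78 ± 0.30 after manual denudation, was -2.04 ± 0.31 after automatic denudation, and manual minus automatic was 1.26 ± 0.30 (adjusted p = 0.9999). MCFD2 was 1.18 ± 0.34 and 0.16 ± 0.33, with manual minus automatic at 1.02 ± 0.33 (adjusted p = 0.9999). IFI6 was 6.81 ± 2.31 and -1.74 ± 1.88, and 8.54 ± 2.50 between manual and automatic (adjusted p = 0.9999). IFI30, a lysosomal thiol reductase, and SCIN, an actin-severing protein, differed from in vivo by -1.25 ± 1.35 and -1.31 ± 0.94 after manual and by -4.75 ± 1.55 and -3.13 ± 1.01 after automatic denudation. Manual minus automatic was 3.50 ± 1.47 and 1.82 ± 0.96 (edgeR adjusted p = 0.9999 for each). IFI30 was at 0 in automatic 2, automatic 4 and in vivo 2, and SCIN in automatic 2, all of them low-detection libraries.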

How the data were processed

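Poly(A) RNA of day 7 bovine blastocysts was measured in 15 libraries, 5 per group, with groups taken from the sample titles. The values are the authors' estimated counts, deposited as unscaled whole numbers in 1 table. The submitters' processing notes list kallisto, fastp and FastQC without a version. Not given in the sources used here: the transcript set, the genome build, whether molecular identifiers were collapsed and whether counting used strand, so a gene and its antisense partner may share reads. Of 17259 genes 17059 matched a RefSeq symbol (names only), and 1 line without a name was left out.

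Counts were rounded, which changed 0 values, and tested by edgeR 4.0.16 (R 4.3.3; robust quasi-likelihood fit and F test, TMM factors, 11578 genes kept by filterByExpr). The 15 libraries were fitted together, each group with its own mean and all with 1 estimate of spread. Adjusted p-values are Benjamini-Hochberg over all genes kept, with a threshold of 0.05. Standard errors were derived from the F statistic (size of the log2 fold change over the root of F). CPM use TMM-scaled totals, which were 17.96 to 41.97 M counts (M, 1e6 counts) before scaling. Counts of 1 library differ from another of its group by more than sampling noise (smallest chi-square over its degrees of freedom, 191). Intervals and floors cover what they are computed from and no molecule counts, since reads were not given as unique molecules. The edgeR step was tested on simulated data.

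Named genes were, with a mean of at least 5 CPM in the higher group, the 8 higher and 8 lower genes without overlap that had the smallest p, and up to 2 members per list with the smallest unadjusted p under 0.05. Genes called by limma-voom (limma 3.58.1) and a panel of 18 genes were added, as were further list members to describe each list, chosen after their values were seen. Some genes that the rule names are not reported here. The members and the 32 lists (783 symbols, 712 in the table) were chosen with earlier results of these data known. Alternatives were other scalings and filters, DESeq2 1.42.0, limma-voom with and without quality weights, the 10 libraries alone, a replicate block, a covariate for detected genes, and leaving out each library or those with low detection.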

Additional observations from a re-analysis of the deposited data

Results flagged for a closer look

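Within each group of 5, a library was marked where its gap to the nearest other library exceeded Dixon's 95% limit on the log2 CPM scale. Of 116 groups of values checked 12 were marked. Chance marks about 1 in 20 for continuous values. That rate does not hold where 1 library has counts and the others are at 0, which is marked by construction. WFDC2 in the manual and CHAC1 in the in vivo libraries are such cases. Among the manual libraries, CERS3 was high in manual 5 (66.2 CPM), KRT18 in manual 3 (12160 CPM) and WFDC2 in manual 1 (0.154 CPM), while ANP32A was low in manual 3 (2.43 CPM), TPI1 in manual 2 (0 CPM) and the library total in manual 5 (17.96 M counts). In vivo, in vivo 3 was high for CHAC1 (0.102 CPM), DDX4 (2.47 CPM) and CD68 (1.15 CPM). In vivo 2 was low for ASNS (2.98 CPM) and IFI30 (0 CPM), and in vivo 4 was high for ATF4 (577 CPM).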

How the results depend on the processing

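The count of genes called between manual and in vivo libraries, 0 in edgeR, was 44 with DESeq2, 1 with limma-voom, 2 with quality weights, 1 with the replicate block (TMSB10, -1.24 ± 0.16, adjusted p = 0.0209), 3 without the low-detection libraries, and 0 with any 1 library left out. Genes at an unadjusted p under 0.05 numbered 1311 without a filter, 655 with DESeq2, 1051 with quality weights, 742 with detected genes as a covariate, 914 without the low-detection libraries, and 378 to 732 with 1 library left out, the highest without in vivo 3. Genes with all manual libraries above numbered 432 without the low-detection libraries and 114 to 187 with 1 left out, and genes below 46 with library size alone, 530 and 95 to 206; fewer libraries separate more easily. Automatic against in vivo, 2 genes in edgeR, gave 0 with library size alone, 1 without a filter, 87 with DESeq2, 9 with limma-voom, 95 with quality weights, 7 with the replicate block, 9 without the low-detection libraries, and 0 to 4 with 1 library left out. Manual against automatic gave 9, 1 and 1 with DESeq2, quality weights and without the low-detection libraries. The transcriptome distance, manual against in vivo, between minus within groups, turned positive on the 1000 highest genes (0.00744) and without the low-detection libraries (0.00663). It ran from -0.0617 to 0.130 with 1 library left out. Centred within number as a replicate block it was 0.242. That centring makes same-numbered libraries mirror images, which raises the distance between groups by construction. The centred value therefore cannot show whether the groups differ. Replicate numbers are only names in the labels: r between same-numbered libraries ran from 0.00137 to 0.254, and 1 of 5 manual libraries correlated best with its own number. The difference in genes with 10 or more counts ran from -243 to 1086 and in the mitochondrial share from -1.85 to 1.35 percentage points with 1 library left out. CDX2 turned to 0.079 with quality weights and 0.12 without the low-detection libraries and ran from -0.72 to 0.48 with 1 left out; GATA6 turned to 0.0055 with library size alone, 0.072 and 0.35, and ran from -0.51 to 0.15. The causes were not tested. The other genes named by the rule kept their sign in every alternative whose filter they passed, and some did not pass in every one. The medians of the amino acid response, amino acid transporter, cholesterol, unfolded protein response, ribosomal, oxidative phosphorylation and stromal lists kept their sign in all alternatives. Medians of lists near 0 turned in some settings. Each group had 5 libraries, and 3 of the 10 had low detection.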
